A study of Homo sapiens and Mus musculus with 25 samples.

Results

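Trimethylation of lysine 4 of histone H3 (H3K4me3) was mapped in K562 with 6 antibodies whose peak lists were narrow, and the loci were sorted by how many of the 6 lists hold them. The 6 are Abcam ab12209, Abclonal A2357, EMD Millipore 05-745R, Thermo Fisher PA5-40086, Diagenode C15410003 and EpiGentek A-4033-050. They are 6 of the 8 H3K4me3 antibodies and 6 of the 25 samples of the series. They were selected on a measured value, a covered length under 100 Mb after overlapping peaks were merged. The value just inside that limit was 42.9 Mb (05-745R) and the value just outside was 165.5 Mb (EMD Millipore 07-473). Their peaks on chromosomes 1 to 22 and X merged into 38514 loci. Of these, 7720 were consensus loci held by 6 of 6 lists, 16782 were partial loci held by 2 to 5 lists, and 14012 were single-list loci.

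All 6 libraries were made from untreated K562 cells, an established human cell line from a chronic myeloid leukaemia with erythroid features. The assay was ICeChIP-seq, a chromatin immunoprecipitation in which barcoded nucleosomes of known modification are added as internal standards. Each antibody was used once, and the sources name no separate cultures, so the spread below is between antibodies and not between biological replicates. The lists of ab12209, A2357, 05-745R and PA5-40086 carry the tag AR16 and those of C15410003 and A-4033-050 the tag AR17, which are the names of 2 K562 input libraries. Libraries were amplified for 12 cycles with ab12209, A2357 and PA5-40086 and for 8 cycles with the other antibodies. The remaining 9 lists against H3K4me1 or H3K4me2 and the other 2 against H3K4me3 were used only to read what lies at the loci.

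H3K4me3 is deposited by the SET1 and MLL methyltransferase complexes around the transcription start site (TSS) of active and poised genes. It is densest on the nucleosomes that flank the start, and it is read by factors that include the TFIID subunit TAF3. Promoters that carry it are often CpG islands, stretches in which the CG dinucleotide has not been depleted. Monomethylation (H3K4me1) is typical of enhancers and of the flanks of promoters, and dimethylation (H3K4me2) of both.

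Promoter sequences show how unlike the loci of the same class can be. The first 3 are promoters inside consensus loci, the widest of the erythroid, the cell cycle and the ribosomal protein lists with an entry that lies within such a locus, and the fourth is a promoter held by the AR16 lists and by neither AR17 list. They run from 250 bases before to 50 bases after the gene's start, are credited to RefSeq (GRCh38.p14), and have each CG dinucleotide in capitals. An entry was found for 9 of the 15 erythroid, 13 of the 15 cell cycle and 54 of the 67 ribosomal protein genes at 6 of 6. GATA1 lies at chrX:48786340-48786639 on the plus strand, RRM2 at chr2:10122489-10122788 on the plus strand, RPLP0 at chr12:120201062-120201361 on the minus strand and GATA2 at chr3:128493152-128493451 on the minus strand.
GATA1: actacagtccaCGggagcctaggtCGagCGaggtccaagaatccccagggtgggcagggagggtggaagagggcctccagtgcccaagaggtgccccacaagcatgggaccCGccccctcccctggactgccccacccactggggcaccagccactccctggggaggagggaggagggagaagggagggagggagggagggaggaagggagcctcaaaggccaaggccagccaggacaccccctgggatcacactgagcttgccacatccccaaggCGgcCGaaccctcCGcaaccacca
RRM2: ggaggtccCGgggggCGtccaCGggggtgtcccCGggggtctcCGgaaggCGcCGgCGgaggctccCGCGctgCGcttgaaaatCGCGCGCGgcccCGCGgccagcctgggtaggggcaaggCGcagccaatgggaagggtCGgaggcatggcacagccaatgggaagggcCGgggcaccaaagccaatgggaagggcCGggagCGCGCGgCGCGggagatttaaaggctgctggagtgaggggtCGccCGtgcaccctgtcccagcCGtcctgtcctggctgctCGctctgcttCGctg
RPLP0: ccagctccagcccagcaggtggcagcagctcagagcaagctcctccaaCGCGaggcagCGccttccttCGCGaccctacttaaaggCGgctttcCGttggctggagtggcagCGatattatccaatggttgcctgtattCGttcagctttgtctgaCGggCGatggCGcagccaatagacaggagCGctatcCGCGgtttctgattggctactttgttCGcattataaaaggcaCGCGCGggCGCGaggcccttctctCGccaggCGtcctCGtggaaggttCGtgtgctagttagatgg
GATA2: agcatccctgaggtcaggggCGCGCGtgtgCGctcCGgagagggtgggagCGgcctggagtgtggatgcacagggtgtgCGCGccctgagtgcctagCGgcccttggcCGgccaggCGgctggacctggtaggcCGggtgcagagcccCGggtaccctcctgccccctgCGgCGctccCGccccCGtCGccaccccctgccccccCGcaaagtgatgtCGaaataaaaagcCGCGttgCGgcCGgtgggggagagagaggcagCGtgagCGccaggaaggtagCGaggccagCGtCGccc
GATA1, the erythroid master transcription factor, has 7 CG dinucleotides in these 300 bases at 67.7% GC. RRM2, a subunit of ribonucleotide reductase, has 31 at 72.3% GC. RPLP0, a protein of the ribosomal stalk, has 25 at 58.3% GC, and GATA2, a transcription factor of blood progenitors, has 29 at 72.3% GC. So a CG-poor and 2 CG-rich sequences are all under peaks of 6 of 6 lists, while the CG-rich GATA2 promoter is under 4.

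For contrast, the central 200 bases (hg38, plus strand) of the widest single-list locus away from any annotated TSS are given for 2 lists. The 05-745R locus is intergenic, with the window at chr4:1055377-1055576, and the A-4033-050 locus is intergenic, with the window at chr13:23161197-23161396.
05-745R locus: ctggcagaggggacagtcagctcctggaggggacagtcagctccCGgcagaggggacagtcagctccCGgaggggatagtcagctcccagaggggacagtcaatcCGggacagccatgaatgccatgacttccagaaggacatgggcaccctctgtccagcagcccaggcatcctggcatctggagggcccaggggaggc
A-4033-050 locus: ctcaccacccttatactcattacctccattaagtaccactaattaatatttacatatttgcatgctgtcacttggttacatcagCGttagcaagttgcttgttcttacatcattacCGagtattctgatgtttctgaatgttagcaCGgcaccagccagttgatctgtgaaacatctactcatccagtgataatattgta
Each holds 3 CG dinucleotides, at 64.5% GC in the 05-745R window and 38% GC in the A-4033-050 window. The 05-745R window repeats a short unit several times.

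Consensus loci lay mostly at gene starts, and single-list loci mostly did not. A coding TSS lay within 1 kb of 70.8% of consensus loci, 28.3% of partial loci and 6.35% of single-list loci. With every annotated TSS counted, the shares were 85.4%, 44.1% and 19.2% in that order of classes. Of the consensus loci, 4.60% were intronic and 9.33% intergenic with no TSS within 1 kb, against 34.1% and 43.7% of the single-list loci. The median distance to a coding TSS was 0 bases for consensus loci, 13412 bases for partial and 29335 bases for single-list loci. From 1 to 6 lists the coding TSS share was 6.35%, 9.93%, 13.5%, 49.1%, 55.3% and 70.8%, so the widest step lies between 3 and 4 lists.

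Each of the 6 lists gave the same order when its own peaks were sorted by class. The share of consensus peaks at a coding TSS was 67.7% for ab12209, 69.0% for A2357, 69.0% for 05-745R, 67.3% for PA5-40086, 66.2% for C15410003 and 64.3% for A-4033-050. Peaks at partial loci had 65.5% for ab12209, 29.2% for A2357, 28.1% for 05-745R, 59.3% for PA5-40086, 21.5% for C15410003 and 10.1% for A-4033-050. Peaks at single-list loci had 54.5% for ab12209 (33 peaks), 12.0% for A2357, 5.01% for 05-745R, 40.7% for PA5-40086 (54 peaks), 8.44% for C15410003 and 2.36% for A-4033-050. The lists are close to each other at consensus loci, which are by definition the same 7720 loci in each list, and far apart elsewhere. Consensus exceeded single-list peaks by 46.8 ± 21.4 percentage points and partial peaks by 31.7 ± 21.2 points (SD of the difference, n = 6 lists), in 6 of 6 lists each. Partial exceeded single-list peaks by 15.1 ± 5.59 points, also in 6 of 6 lists. An exact two-sided sign-flip test over the lists gave p = 0.0312 for each of the 3 differences, the smallest that 6 lists allow, and the Benjamini-Hochberg adjusted p over 7 tests was 0.0729, which misses the threshold of 0.05. The differences are not independent between lists, since all lists share the consensus loci and 2 to 5 lists share each partial locus. The 6 of 6 lists are therefore not 6 separate results. With the AR16 lists alone and classes rebuilt on them, the difference of partial minus single-list peaks was -6.98 points.

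**Figure D1:**
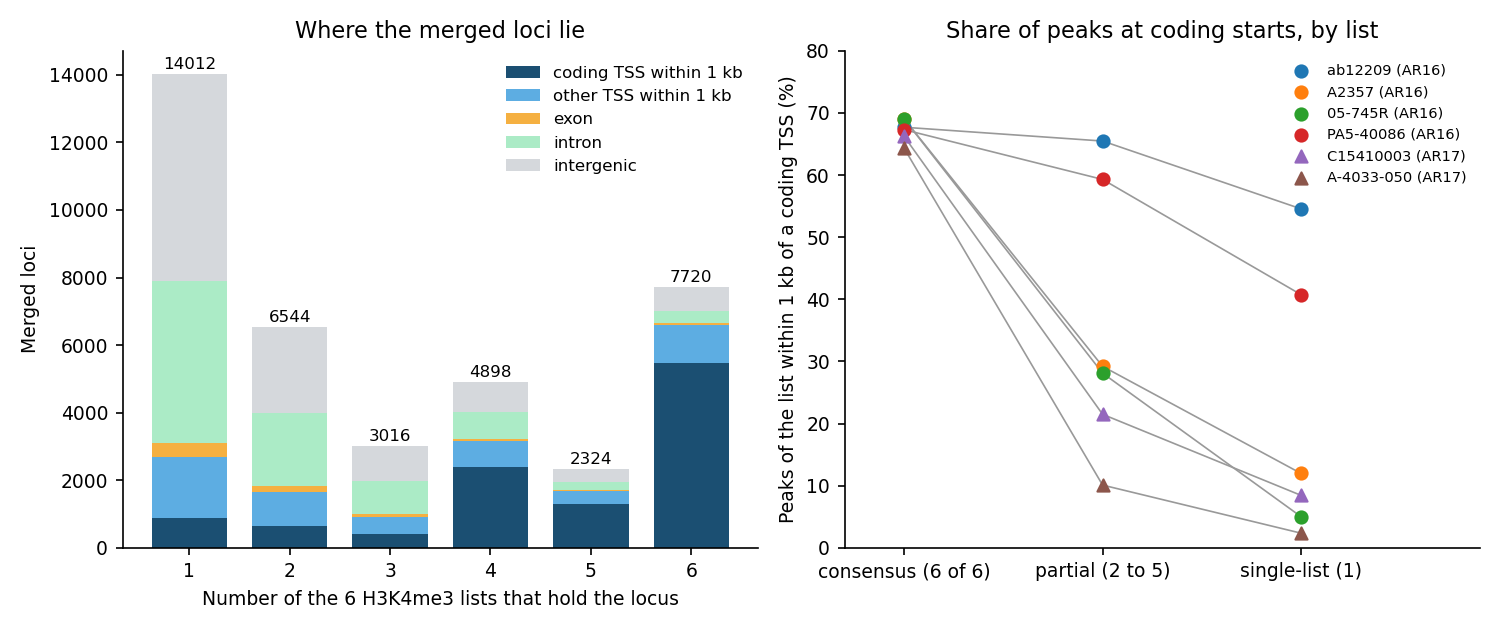
Left, merged loci (y axis) by the number of the 6 H3K4me3 lists that hold them (x axis), coloured by the annotation at the locus. Right, the percent of each list's peaks within 1 kb of a coding TSS (y axis) for its consensus, partial and single-list peaks, 1 point per list. The 6 lists lie between 64.3% and 69.0% at consensus loci, which are the same loci in each list, and spread from 2.36% to 54.5% at single-list loci.

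Width moved with the class. Consensus loci had a median width of 2478 bases, partial loci 879 bases and single-list loci 280 bases, and consensus loci made up 20.0% of loci but 45.4% of the covered bases. Among loci of 1 to 2 kb, 53.7% of 2124 consensus, 35.2% of 4185 partial and 47.7% of 216 single-list loci lay at a coding TSS. Among loci of 2 to 4 kb the shares were 82.2% of 3834 consensus, 78.3% of 2582 partial and 83.0% of 94 single-list loci. At 4 kb or more the order was reversed, with 81.6% of 1360 consensus, 87.6% of 509 partial and 90% of 10 single-list loci. The difference between consensus and single-list loci, 64.4 points over all widths, was thus 6.03 points at 1 to 2 kb and -0.741 points at 2 to 4 kb. Only 2.28% of single-list loci were wider than 1 kb. At 500 to 1000 bases, 14.8% of 384 consensus, 9.88% of 6233 partial and 10.3% of 1705 single-list loci lay at a coding TSS. Below 500 bases the shares were 22.2% of 18 consensus, 5.8% of 3273 partial and 4.37% of 11987 single-list loci. Width was computed from the same peaks as the classes, and these within-width values were chosen after seeing the data.

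Single-list loci came mainly from 1 antibody. The 05-745R list alone held 10087 of them, or 71.99%, the A2357 list 2106, A-4033-050 891, C15410003 841, PA5-40086 54 and ab12209 33. The 05-745R and A2357 lists are also the ones with the most peaks, 33922 and 26107, against 13311 to 16727 in the other lists. Read the other way, 63.8% of the loci held by A-4033-050, 58.7% of those held by ab12209, 54.0% by PA5-40086, 50.2% by C15410003, 30.3% by A2357 and 23.2% by 05-745R were consensus loci. Without 05-745R, and with classes rebuilt on the other 5 lists, 11081 partial and 10259 single-list loci were counted. In the 4 lists that hold the authors' value per peak, its median was higher at consensus than at single-list peaks, at 28.2 against 10.4 for ab12209, 42.1 against 8.15 for A2357, 37.1 against 7.72 for 05-745R and 32.1 against 11.1 for PA5-40086. The scale of that value is not named in the files, so it is compared only within a list.

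The 6 antibodies drew consensus loci with different edges. The median length under a peak at a consensus locus was 1636 bases for ab12209, 1729 for PA5-40086, 1916 for A-4033-050, 2066 for C15410003, 2282 for A2357 and 2353 for 05-745R. The part under peaks of 6 of 6 lists at once had a median of 1493 bases, or 61.4% of the locus. In 199 loci, 2.58% of the consensus, no base was under peaks of 6 of 6 lists, so the lists meet there only through merging. At 4358 consensus promoters with a single coding TSS, peaks reached farther into the gene than upstream. For ab12209 the median was 1094 bases downstream and 651 bases upstream, and for 05-745R it was 1538 and 963 bases. The downstream side was the longer one at 77.3% (A-4033-050) to 80.9% (A2357) of these promoters, depending on the list. The TSS itself was under a peak at 99.3% of them in the A2357 list, 98.5% in 05-745R, 96.0% in PA5-40086, 95.2% in ab12209, 91.7% in C15410003 and 90.5% in A-4033-050.

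**Figure D2:**
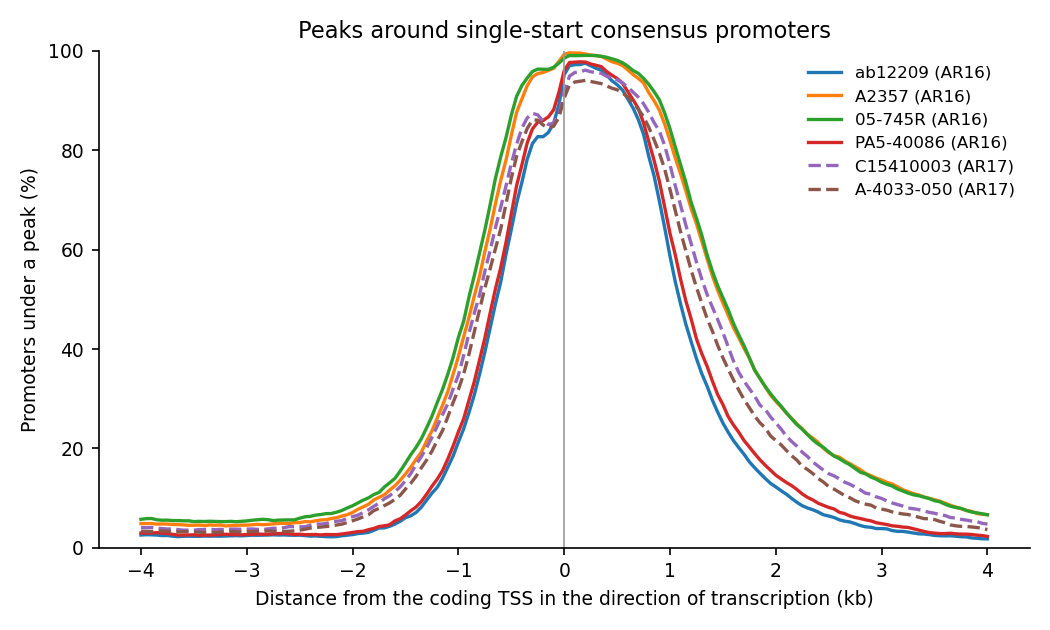
Percent of 4358 single-start consensus promoters under a peak (y axis) by distance from the coding TSS in the direction of transcription, in kb (x axis), 1 line per list, solid for AR16 and dashed for AR17. At 1 kb each line is higher downstream than upstream of the start, and ab12209 and PA5-40086 are the lowest of the 6 lines at 1 kb on both sides.

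The widest consensus loci held several gene starts or a long single domain. The widest, chr12:54277381-54305442 (28062 bases), holds the starts of CBX5, which encodes a heterochromatin protein, of HNRNPA1, an RNA-binding protein, and of NFE2, an erythroid and megakaryocytic transcription factor. At this locus ab12209 peaks covered 21280 bases, A2357 27970, 05-745R 27883, PA5-40086 22367, C15410003 27521 and A-4033-050 25821. The second, chr6:27126939-27148956 (22018 bases), holds 5 starts of replication-dependent histone genes, among them H2BC11 and H4C9, and the fourth, chr1:149828091-149846511 (18421 bases), holds H4C14, H3C14 and H2AC18 of another histone cluster. At the chromosome 1 cluster around H4C14 the AR17 lists covered less of the locus, 8275 bases for C15410003 and 7953 for A-4033-050, against 16193 to 18421 bases in the AR16 lists. The third, chr19:28525903-28547362 (21460 bases), has no coding TSS, the nearest, UQCRFS1, lying 665789 bases away, but it does hold the start of a non-coding transcript. The fifth, chr21:14531581-14547320 (15740 bases), lies at SAMSN1, an adaptor protein gene of blood cells, and the length under a peak there ran from 5162 bases for ab12209 to 15430 for 05-745R. At the other end, the narrowest consensus loci at a coding TSS were 476 bases at CCDC63 and 481 bases at YPEL1.

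Consensus loci away from every annotated TSS numbered 1126. The widest of them, chr21:21144721-21154173 (9453 bases), is intronic and 146312 bases from the coding TSS of NCAM2, and the next, chr4:74323535-74332191 (8657 bases), is intergenic and 15065 bases from the TSS of EPGN. The short motif AGATAAG, a form of the GATA factor site, was in the central 300 bases of 4.88% of these consensus loci, 7.70% of partial and 6.70% of single-list loci without a TSS, and in 5.10% of all merged loci, on either strand. The AP-1 form TGACTCA was in 6.48%, 10.1% and 8.63% of the same 3 sets and in 7.03% of all loci. A match in these windows is a description and does not show that a factor binds.

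Promoters were then read gene by gene, as windows that reach 1 kb to each side of the canonical TSS, for 19962 coding genes in GENCODE release 44. A peak of 6 of 6 lists lay in 6268 of them (31.4%), of 1 to 5 lists in 6009 (30.1%) and of 0 lists in 7685 (38.5%). Single lists held 11584 promoters (A2357), 11531 (05-745R), 10650 (PA5-40086), 10315 (ab12209), 8027 (C15410003) and 6683 (A-4033-050). The promoters at 1 to 5 lists were mostly at 4 (2725) or 5 (1370). A window without a listed peak does not show an unmodified promoter, since the depth behind the lists is unknown.

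Genes of the translation and splicing machinery sat high in the consensus. A peak of 6 of 6 lists was found at 16 of 20 aminoacyl-tRNA synthetase promoters (80%), 62 of 78 mitochondrial ribosome promoters (79.5%), 67 of 85 cytosolic ribosomal protein promoters (78.8%) and 20 of 26 spliceosome promoters (76.9%), each beside 31.4% of all promoters. RPL23A, a protein of the large ribosomal subunit, lay in a locus of 10515 bases, of which ab12209 peaks covered 7309, A2357 10403, 05-745R 10090, PA5-40086 7729, C15410003 9131 and A-4033-050 8018. RPLP0 and RPL27A lay in loci of 9474 and 8732 bases, SRSF2, a splicing regulator, in one of 7497 bases, and WARS1, the tryptophan enzyme, in one of 6411 bases. Members outside the consensus were few. PRPF8, the core scaffold of the spliceosome, and SNRPB, a component of its snRNPs, were held by the 4 AR16 lists and by 0 of the 2 AR17 lists, and so was RPL10 on chromosome X. RPL10L and RPL3L, tissue-restricted paralogs of ribosomal proteins, were at 0. U2AF1 of the spliceosome list and MRPL23 and MRPL45 of the mitochondrial ribosome list were at 0 as well. The general transcription machinery stood lower, with 17 of 28 at 6 of 6 (60.7%), 8 at 1 to 5 and 3 at 0. Among its members TBP, the TATA-binding protein, was at 6 of 6, GTF2A1 at 2 and POLR2J at 0.

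Cell cycle and DNA replication genes had 15 of 27 promoters at 6 of 6 (55.6%, beside 31.4% of all promoters), 11 at 1 to 5 (40.7%, beside 30.1%) and 1 at 0 (3.70%, beside 38.5%). RRM2 lay in a locus of 5205 bases, covered over 4638 bases by ab12209, 5034 by A2357, 5192 by 05-745R, 4638 by PA5-40086, 4932 by C15410003 and 4857 by A-4033-050, so the 6 lists differed little there. BUB1, a spindle checkpoint kinase, and CDK1, the mitotic cyclin-dependent kinase, lay in loci of 5164 and 4824 bases. AURKB, a mitotic kinase, and CCNA2, cyclin A2, were at 5, each without a peak of A-4033-050. MCM5, a subunit of the replicative helicase, was at 0.

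Of 26 erythroid genes, 15 were at 6 of 6 (57.7%, beside 31.4% of all promoters) and 10 at 1 to 5 (38.5%, beside 30.1%). The fetal gamma-globin genes HBG1 and HBG2 shared 1 locus of 13770 bases, covered over 7240 bases by ab12209, 12691 by A2357, 12754 by 05-745R, 7659 by PA5-40086, 10552 by C15410003 and 11437 by A-4033-050. The locus of GATA1 was 6369 bases wide, that of the transferrin receptor gene TFRC 6237, that of the transcription factor TAL1 5559 and that of KLF1, an activator of adult globin, 4394. ALAS2, the erythroid enzyme of the first step of haem synthesis, was at 5, without ab12209, and BCL11A, a repressor of gamma-globin, at 2. As a check of the labelled cell line, 12 of 19 K562 markers, most of them in this list, were at 6 of 6, and 0 of 25 markers of T lymphocytes, B lymphocytes, myeloid, neural and liver cells were.

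Genes of other lineages were mostly outside the lists, to be read beside 31.4% of all promoters at 6 of 6 and 38.5% at 0. Of the megakaryocyte and platelet genes 1 of 12 was at 6 of 6, RUNX1, a transcription factor of blood development, and 8 (66.7%) were at 0, among them FLI1 and GP1BA. Of the myeloid genes 1 of 15 was at 6 of 6, the surface receptor gene CD33, and 10 (66.7%) were at 0, among them CD14. No lymphoid gene of 19 was at 6 of 6 and 15 (78.9%) were at 0, with CD3D, a T-cell receptor subunit gene, at 5. Of 18 neural genes 1 was at 6 of 6, SLC17A7, which encodes a glutamate transporter, and 13 (72.2%) were at 0. All 17 liver genes and all 14 muscle genes were at 0. Among 415 olfactory receptor genes 408 were at 0 and 2, OR1F1 and OR2AT4, were at 6 of 6. Of 39 HOX genes 6 (15.4%) were at 6 of 6 and 25 (64.1%) at 0. Those at 6 of 6 included HOXB2, HOXB9 and HOXB4 in loci of 8536, 8434 and 8031 bases, while HOXB5 and HOXB13 were at 1 and HOXA10 at 0.

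**Figure D3:**
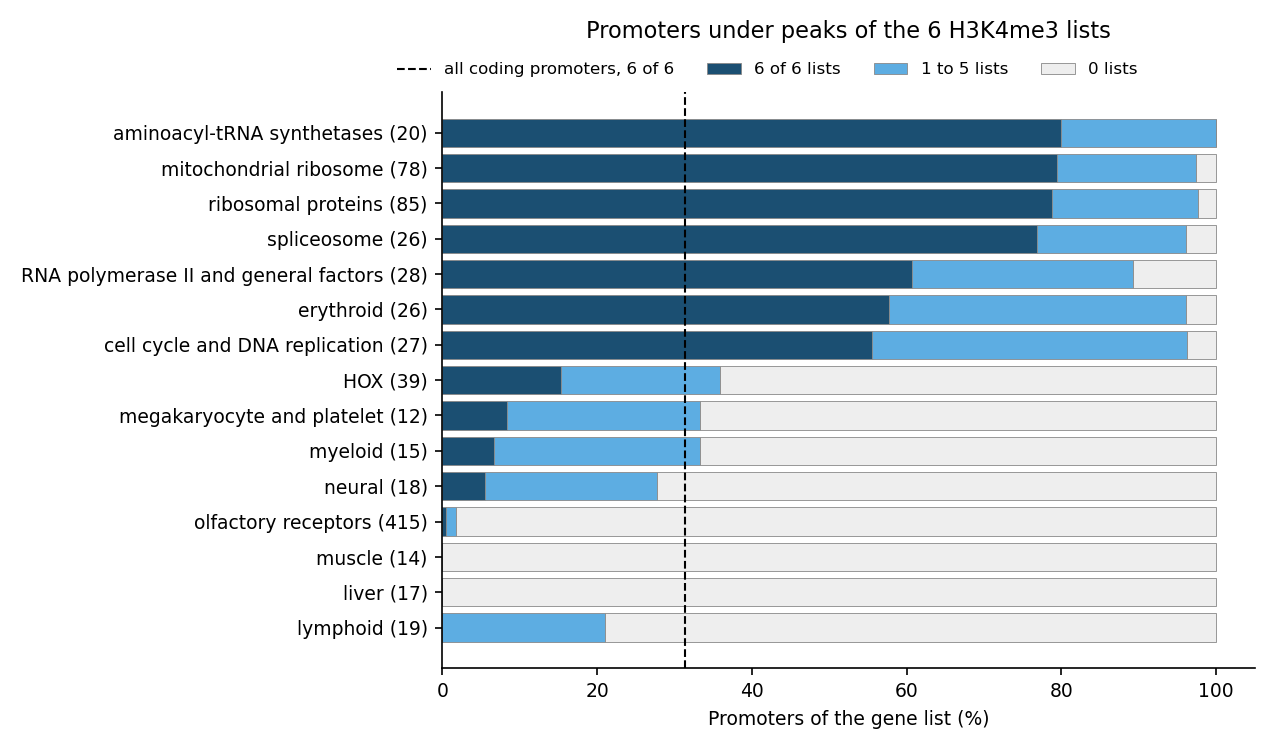
Percent of each gene list's promoters (x axis) under peaks of 6 of 6, 1 to 5 or 0 lists, with the number of genes in brackets. The dashed line marks the 31.4% of all coding promoters at 6 of 6; 7 lists lie above it and 8 below.

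Partial loci differed with the lists that held them. The 5405 that ab12209 held had a coding TSS within 1 kb in 66.98%, a median width of 1930 bases and a median GC content of 66.3%, while the 11377 that it did not hold had 9.91%, 689 bases and 49.7%. Split by A-4033-050, the order was the other way, with 13.1% at a coding TSS in the 3491 loci it held and 32.3% in the 13291 others. Some patterns lay between, such as A2357 with PA5-40086 alone (190 loci, 47.4%). The most common partial pattern, A2357 with 05-745R alone (5005 loci), had 8.29% at a coding TSS and a median width of 576 bases. The next was the 4 AR16 lists without either AR17 list (3060 loci). Consensus loci had 70.8% at a coding TSS, a median width of 2478 bases and a median GC of 58.3%, and these 3060 loci had 72.3%, 1951 bases and 68.3%. A further 1578 loci lacked A-4033-050 alone, and 66.5% of them lay at a coding TSS.

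Widely marked genes were among the loci that the AR17 lists left out. GATA2 lay in a locus of 11677 bases, covered over 10175 bases by ab12209, 11430 by A2357, 11629 by 05-745R and 10684 by PA5-40086, with no peak of C15410003 or A-4033-050. SETD1B, a subunit of an H3K4 methyltransferase complex, lay in such a locus of 10413 bases, and the interferon-induced genes IFITM1, IFITM2 and IFITM3 in one of 13248 bases. HHEX, a homeobox gene of blood and liver development, lay in a locus of 10422 bases with 872 bases under C15410003 and 0 under A-4033-050, against 7917 to 10107 bases in the AR16 lists. GLRX5, a mitochondrial iron-sulfur protein gene, had 368 bases under C15410003 and 0 under A-4033-050, against 4378 to 8126 in the AR16 lists. Other wide loci lacked 1 list, though at some of them the remaining lists covered unequal lengths. The AKAP11 and EP300 loci, 6870 and 5236 bases wide, lacked ab12209 alone, the RBMX locus (4852 bases) lacked 05-745R alone, the PTPN1 locus (5012 bases) PA5-40086 alone, and the MAFG locus (7751 bases) C15410003 alone. At MAFG, A-4033-050 covered 429 bases and A2357 7550, at PTPN1 ab12209 covered 1182 and A2357 4949, and at AKAP11 A-4033-050 covered 1439 and 05-745R 6536. The wider ALOXE3 locus (10317 bases) also lacked C15410003 alone, and there A-4033-050 covered 2947 bases and 05-745R 10317. At RBMX the lists present covered 3645 to 4852 bases, and at EP300 2927 to 4752. In the reverse case a wide promoter locus was listed by 1 antibody, as with 7280 bases at GSK3B in A2357 and 3261 bases at MORF4L2 in C15410003. A locus of 23362 bases listed by PA5-40086 alone covers GAGE12G, GAGE12H and GAGE2A, near-identical copies between which the placement of reads is uncertain.

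Each AR17 list held a smaller share of promoters than any AR16 list in the classes from 50% GC up, and they differed most at 75% GC or more. Below 50% GC the shares of the AR17 and AR16 lists overlapped, and few promoters were held. Below 40% GC the AR17 lists held 4.60% and 5.14%, and the AR16 lists 4.87% to 7.85%. At 40 to 50% GC the AR17 lists held 11.09% and 11.75%, and the AR16 lists 10.55% to 17.18%. GC content was read in 300 bases around the TSS. Among 2174 promoters of 55 to 60% GC, C15410003 held 41.5% and A-4033-050 38.1%, and ab12209 held 45.0%, A2357 49.6%, 05-745R 50.8% and PA5-40086 45.7%. Among 3907 promoters of 75% GC or more, C15410003 held 37.9% and A-4033-050 26.7%, and ab12209 held 59.9%, A2357 70.4%, 05-745R 67.7% and PA5-40086 63.6%. The share did not change with GC in 1 direction in any list: among 1360 promoters of 50 to 55% GC, C15410003 held 26.1% and A-4033-050 23.4%, against 26.8% to 34.6% in the AR16 lists, and among 3410 promoters of 65 to 70% GC, C15410003 held 53.7% and A-4033-050 45.6%, against 67.2% to 72.5% in the AR16 lists. From 65 to 70% GC to 75% GC or more the share was lower in 6 of 6 lists. Of the promoters that all 4 AR16 lists held, both AR17 lists held 80.6% below 40% GC, 74.5% at 60 to 65% GC and 41.8% at 75% GC or more. By chromosome, that share was 79.0% on chromosome 1 and 80.2% on chromosome 21, and 17.9% on chromosome 13, 24.8% on X and 37.5% on 14, whose median promoter GC contents were 67%, 62.3% and 66.0% against 64.7% on chromosome 1. The 2 antibodies and the input tag cannot be told apart, since neither AR17 antibody has an AR16 list, and the part of either in the result was not tested.

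**Figure D4:**
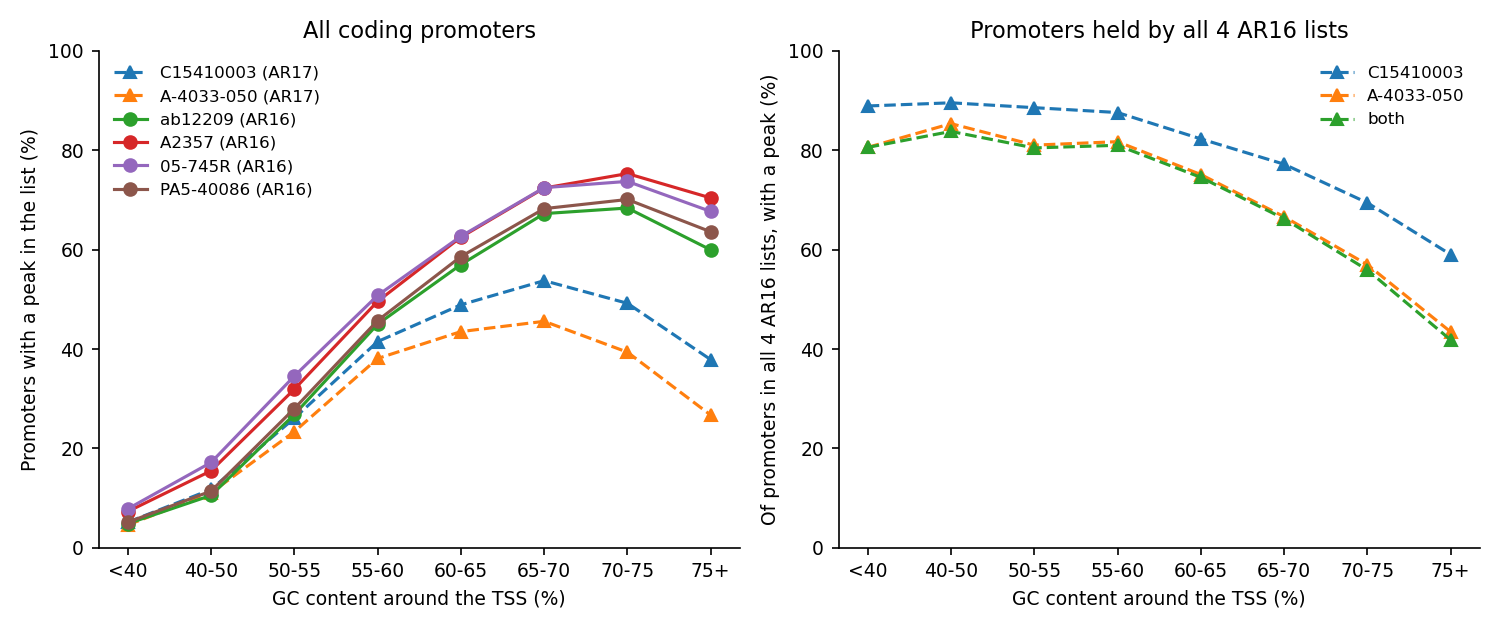
Left, percent of all coding promoters with a peak in each list (y axis) by GC content of 300 bases around the TSS in percent (x axis), dashed lines for the AR17 and solid lines for the AR16 lists. Right, of the promoters in all 4 AR16 lists, the percent with a peak in C15410003, A-4033-050 or both; the share in both is 41.8% at 75% GC or more.

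Sequence content also varied with the number of lists. The median GC content of the 300-base promoter window was 66.7% at 6 of 6, 71.3% at 1 to 5 and 58.7% at 0, and the ratio of observed to expected CG dinucleotides was 0.876, 0.871 and 0.385. The motif CCGGAAG, the core of an ETS factor site, was in 25.1% of promoters at 6 of 6, 13.5% at 1 to 5 and 3.94% at 0, against 13.5% of all promoters, on either strand. AAGATGG, a form of the YY1 site, was in 10.3%, 5.86% and 4.39% of the same 3 sets and 6.69% of all promoters. TATAAA was in 3.46%, 3.94% and 15.2% of them and 8.13% of all.

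The 11 H3K4 lists outside the 6 were used to ask what else lies at the loci, by whether a peak covers part of the central 200 bases. Across them the mean share was 87.6% for consensus, 86.1% for partial and 86.5% for single-list loci. These means join lists of 3 targets that differed from each other. Consensus minus single-list was 1.16 ± 14.2 points (SD, n = 11 lists; exact sign-flip p = 0.790, adjusted p = 0.839, higher in 7 of 11), partial minus single-list -0.317 ± 5.44 points (adjusted p = 0.839, exact test) and consensus minus partial 1.47 ± 10.0 points (adjusted p = 0.839, exact test). These lists cover from 3.65% (05-1338) to 52.6% (39635) of the genome, so a hit is easier for some than for others. The narrowest, 05-1338 against H3K4me2, overlapped the centre of 92.4% of consensus, 95.9% of partial and 92.0% of single-list loci, and 07-473 against H3K4me3, at 5.46% of the genome, 99.6%, 94.1% and 87.2%. The other H3K4me3 list, ab8580, which covers 25.4% of the genome, overlapped 98.3%, 84.3% and 78.6%, and its 19.8 points of consensus minus single-list were the largest of the 11 lists.

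The average hid a difference by target. At the centre of consensus loci, H3K4me1 peaks were found at 76.0% ± 11.0 (SD, n = 5 lists) and H3K4me2 peaks at 96.4% ± 2.89 (n = 4), and at the centre of single-list loci at 85.4% ± 5.69 and 89.6% ± 3.31. The difference of consensus minus single-list was -9.33 points for H3K4me1 and 6.78 points for H3K4me2, a gap of -16.1 points (exact two-sided permutation p = 0.0476, adjusted p = 0.0833, smallest possible p = 0.0159), which does not pass the adjusted threshold. For the other 2 H3K4me3 lists consensus minus single-list averaged 16.1 ± 5.15 points (SD), with no test of that target. Among the H3K4me1 lists it was -26.3 points for 710795, -19.9 for CST 5326 BF, -6.13 for A-4031-050, -3.86 for ab8895 and 9.58 for 39635, the list with the widest peaks. The gap turned to 1.51 points when the whole locus was read, since H3K4me1 peaks touched 96.6% ± 3.44 of whole consensus loci and 85.8% ± 5.84 of whole single-list loci. In that reading consensus exceeded single-list loci by 11.2 points and partial loci by 8.24 points over the 11 lists, each with adjusted p = 0.00342 by the exact sign-flip test, and the wider consensus loci have more bases to be hit. Where no annotated TSS lay within 1 kb, the H3K4me1 share at the centre was 90.4% ± 4.25 for consensus, 87.5% ± 5.87 for partial and 86.8% ± 5.70 for single-list loci (SD, n = 5), and at consensus loci with a coding TSS it was 70.8% ± 14.5. The H3K27me3 list, which covers 66.9% of the genome, overlapped the centre of 82.9% of consensus, 74.1% of partial and 81.7% of single-list loci. The H3K9me3 list covers 93.5% of the genome and overlapped 99.9% or more of each class, so it says little about any of them.

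**Figure D5:**
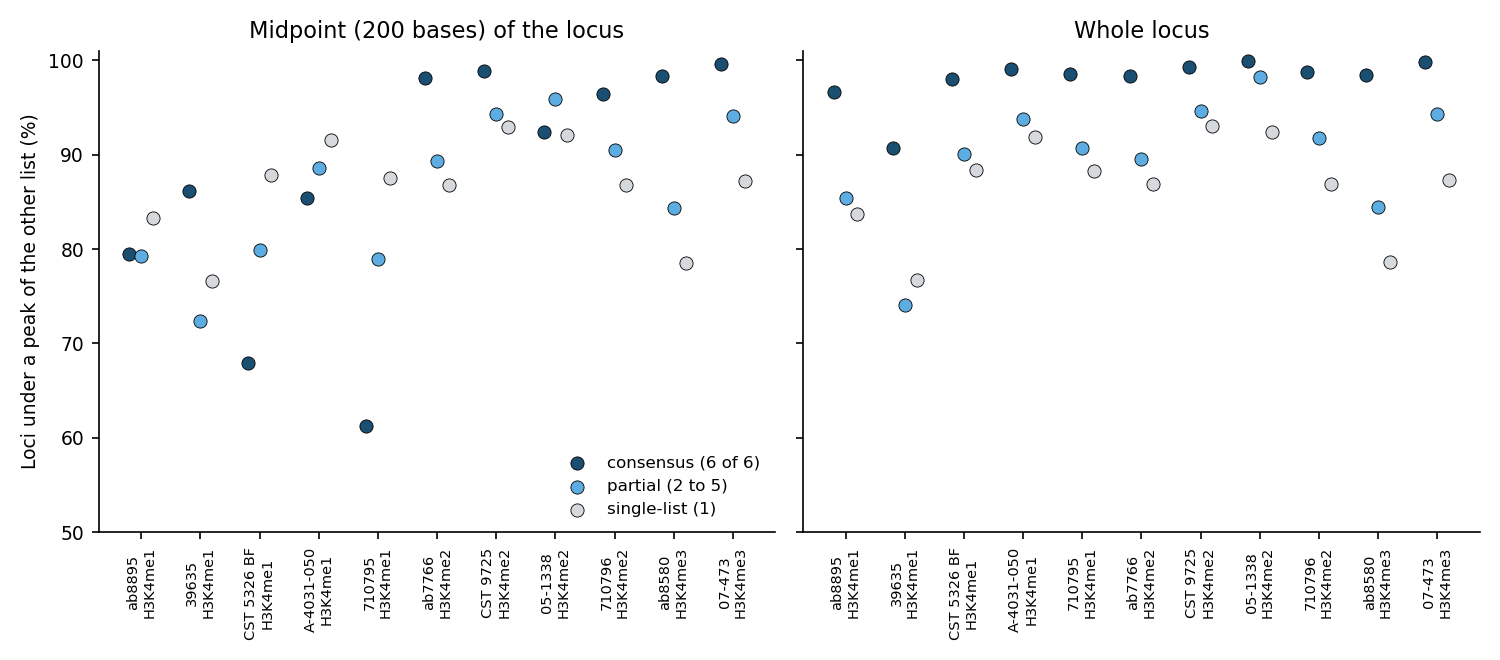
Percent of consensus, partial and single-list loci (points) under a peak of each of the 11 other H3K4 lists (x axis, with its target), on a y axis that starts at 50%, read at the central 200 bases (left) and over the whole locus (right). At the centre, consensus points are below single-list points for 4 of the 5 H3K4me1 lists, and on the right they are above both other classes for all 11.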

How the data were processed

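The members of the comparison and the gene lists were chosen with earlier results of these data known. The deposited files are 1 peak list per antibody on GRCh38 (hg38), made with Bowtie2, SAMtools, bedtools and MACS2 per the submitters' processing notes. The sources used here name no versions and no calling settings. The 4 AR16 lists carry a signal value per peak as deposited by the authors, whose scale no header names, and the 2 AR17 lists hold positions only. The tags AR16 and AR17 were read from the names under which the lists were deposited. The lists carry no read counts, so depth is unknown and no counting interval is given.

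Other contigs than chromosomes 1 to 22 and X were left out, with 75 peaks of the 6 lists. Overlapping or touching peaks of the 6 lists were merged into loci, and a list held a locus when at least 1 base of a peak lay in it. Coding and other TSS came from GENCODE release 44, with 1 kb as the window, and 8 repeated gene symbols were counted once. Shares per list were compared by exact two-sided sign-flip tests and by an exact permutation test of the target, adjusted by the Benjamini-Hochberg method over 7 tests at 0.05. Classes rest on the peaks themselves, so widths, values, GC content and gene lists are described with no test. Named genes were, per gene list, up to 3 at 6 of 6 with the widest loci and up to 2 each at 1 to 5 and at 0 in alphabetical order, and named loci the widest or narrowest of each pattern. GATA1, TFRC, TAL1, KLF1, GATA2 and the IFITM and SETD1B loci, AGATAAG and the other motifs, and the GC classes were chosen after values were seen. The interval code and exact tests were tested on simulated data. Python 3.11.15, numpy 2.4.6, pandas 2.3.3, pysam 0.24.0 and matplotlib 3.10.9 were used. The inputs, the corrected lists and the mouse cells were not analysed here.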

Additional observations from a re-analysis of the deposited data

Results flagged for a closer look

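The number of single-list loci was 10087 for 05-745R, far from the 33 to 2106 of the other 5 lists, and Dixon's test set this list apart. This was 1 of 21 such measures examined over lists, and chance sets a sample apart in about 1 of 20 groups. The count is made from the same peaks that define the classes, so the test served as a screen and gives no support. The 05-745R list is also the longest of the 6, with 33922 peaks and 42.9 Mb. Its single-list peaks had a median width of 288 bases and a median authors' value of 7.72, against 37.1 at its consensus peaks.

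The change in the share of promoters held, from 55 to 60% GC to 75% GC or more, had opposite signs in the 2 input tags. It was -3.63 points for C15410003 and -11.4 for A-4033-050, with a mean of -7.51 for AR17, and 15.0 for ab12209, 20.8 for A2357, 16.9 for 05-745R and 17.9 for PA5-40086, with a mean of 17.6 for AR16. The means differed by -25.1 points (AR17 minus AR16). The sign turns with the class it is measured from: from 50 to 55% GC the share was higher at 75% GC or more in 6 of 6 lists, and from 65 to 70% GC it was lower in 6 of 6 lists. An exact two-sided permutation test gave p = 0.133, the smallest that 2 lists against 4 allow, so the difference cannot pass a threshold of 0.05, and the GC classes were chosen after seeing the data. Antibody and input tag cannot be told apart.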

How the results depend on the processing

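The share of peaks at a coding TSS kept its order of consensus above partial and single-list peaks under all 14 alternatives, and partial stayed above single-list peaks under 13. Without each member list in turn, consensus minus single-list was 42.6 to 51.1 points, consensus minus partial 27.6 to 35.8 and partial minus single-list 11.5 to 17.5. With the AR16 lists alone partial minus single-list was -6.98 points, and there were 12602 consensus and 10384 partial loci, with the classes counted over those lists only. Loci of like width were not among the 14 alternatives, and the order did not hold in each width class. Pooled over lists, consensus minus single-list loci was 6.03 points at 1 to 2 kb and -0.741 at 2 to 4 kb, widths that held 216 and 94 single-list loci. At 4 kb or more, 81.6% of consensus, 87.6% of partial and 90% of 10 single-list loci lay at a coding TSS.

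The small differences in peaks of other H3K4 lists changed sign often. Consensus minus single-list, partial minus single-list and consensus minus partial were -1.10, 0.0722 and -1.17 points when a list had to cover at least 0.5 of the locus. They were -3.45, 2.08 and -5.53 with the AR16 lists alone, and 11.2, 3.00 and 8.24 over whole loci. With peaks at or above the list's median value they were -1.76, 1.23 and -2.99, with 4569 consensus and 7230 single-list loci left. That filter was applied to the 4 AR16 lists only, and the 2 AR17 lists, which carry no values, were kept whole. Among these settings, partial minus single-list passed the threshold with the AR16 lists alone (exact sign-flip test, adjusted p = 0.0273). Over whole loci it passed too (adjusted p = 0.0160, exact test), as did the other 2 differences (adjusted p = 0.00342 each, exact test). As first reported, each had adjusted p = 0.839 by the exact test. Merging at up to 500 bases gave 0.0461 for partial minus single-list. Without chromosomes 13, 14 and X, consensus minus single-list was -0.531 and consensus minus partial -0.378. Leaving out 1 list gave -1.76 to 3.90 for consensus minus single-list, -3.83 to 0.907 for partial minus single-list and 0.219 to 3.96 for consensus minus partial. H3K4me1 against H3K4me2 was -20.8 to -11.9 points without 1 list and 1.51 over whole loci. The causes were not tested.

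Without 1 list there were 7718 to 9309 consensus, 11081 (without 05-745R) to 16492 partial and 10259 to 17818 single-list loci, and 6269 to 7451 promoters were held by all remaining lists. Of 80 named genes, 78 kept their class (6 of 6, 1 to 5 or 0) with a window of 0.5 kb and 77 with 2.5 kb. No paired analysis was possible because each antibody was used once and replicate numbers only name antibodies, so a number shared by 2 targets marks no common sample.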
